A study of Homo sapiens with 12 samples.

Results

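LGR5 and 9 other genes of the Wnt pathway and its feedback loops were followed in SW1736 cells, an established line derived from an anaplastic thyroid carcinoma. The 10 members were taken by symbol from the deposited gene counts, out of 56832 symbols. They are the R-spondin receptors LGR5 and LGR4, the membrane ubiquitin ligases RNF43 and ZNRF3, the scaffold AXIN2, the DNA-binding factors LEF1, TCF7 and TCF7L2, the secreted inhibitor DKK1, and CTNNB1, which encodes beta-catenin. Of the 10, 9 passed the filter on low counts and were tested. LEF1 had 0 counts in all 12 libraries and was not tested.

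The cells carried either the vector pCDH-TRB, for stable expression of thyroid hormone receptor beta, or the empty vector pCDH-EV. All of them were starved of hormone for 24 hours in medium without phenol red that held charcoal-stripped serum. They then received 10 nM of the thyroid hormone T3 or its NaOH vehicle for 24 hours, which gives the groups EV vehicle, EV T3, TRB vehicle and TRB T3, with 3 libraries each. Every comparison was made within 1 line. The sources used here do not say which promoter drives the receptor, whether the transduced cells are a pool or a clone, or whether the 3 libraries of a group came from separate cultures, so the p-values measure only the spread between these libraries, which may be technical.

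In canonical Wnt signalling, beta-catenin is marked for destruction by a complex built on AXIN proteins until a Wnt ligand engages Frizzled and LRP receptors. Beta-catenin then accumulates, binds TCF and LEF factors on DNA and drives target genes, and several of these targets feed back on the pathway. AXIN2 rebuilds the destruction complex, RNF43 and ZNRF3 remove Frizzled from the membrane, DKK1 blocks the LRP coreceptors, and LGR4 and LGR5 bind R-spondins, which clear RNF43 and ZNRF3 from the surface. LGR5 is best known as a marker of stem cells in the gut epithelium. Thyroid hormone receptor beta is a nuclear receptor that binds DNA with or without T3 and changes its cofactors when T3 binds.

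The libraries held 3819306 to 13086717 counts in genes. TRB T3 replicate 2 stood apart: the biological coefficient of variation in edgeR was 0.629 in the TRB T3 group and 0.0576 without that library. Its difference from replicates 1 and 3 followed the GC content of the transcripts, with a Spearman correlation across 12130 genes of -0.90, which describes 1 library and has no p-value. Results that rest on the TRB T3 group are therefore given for 12 libraries and for the 11 without it. By the same edgeR measure, EV T3 libraries scattered more (0.219) than those of EV vehicle (0.0925) or TRB vehicle (0.0807). The 11 libraries include all of EV T3, so comparisons with that group keep this wider scatter. Multiply aligned reads were 69.6 to 92.0% of all counts in EV T3 and 33.1 to 66.3% in EV vehicle. Whether these shares bear on the scatter was not tested. The receptor transcript THRB had 14.6 ± 1.39 CPM (counts scaled to 1000000 in each library; SD, n = 3) in EV vehicle, 14.9 ± 3.04 in EV T3, 80.1 ± 0.314 in TRB vehicle and 269.6 ± 69.8 in TRB T3. It was 5.46-fold higher in TRB than in EV cells in vehicle (edgeR adjusted p = 0.00377), and it rose with T3 in TRB cells by 1.75 (log2, adjusted p = 0.000434), or 2.0 (adjusted p = 2.1e-07) with 11 libraries. The defining markers of the labelled tissue were absent or low. Of 7 thyroid follicular markers, TSHR and FOXE1 were at 0 in every library and the summed level was 1.08 to 10.9 CPM. The 4 epithelial markers summed to 1840 to 4850 CPM. Of 4 mesenchymal markers, COL1A2 was at 0 and VIM lay between 0 and 1.51 CPM. The other mesenchymal markers, COL1A1 and FN1, lay at 1.44 to 33.2 and 9.15 to 303 CPM. VIL1, LGALS4 and HNF4A, genes well known from gut epithelium and picked here after their values were seen, lay at 155 to 208, 56.1 to 733 and 23.2 to 126 CPM. The levels of the thyroid and gut genes do not match the labelled tissue, and the mesenchymal markers were mixed. The identity of the line was not tested, which bears on how LGR5, a gut stem cell marker, is read here. Leukocyte markers summed to 0.18 to 9.87 CPM and endothelial markers to 0 to 0.317 CPM, with CD3E and CDH5 at 0 throughout.

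LGR5, a receptor for R-spondins, changed the most of the 9 tested members with T3 in either kind of cell (GENCODE 29, GRCh38, chromosome 12, 71439770 to 71586310, plus strand). Its CPM, scaled by edgeR's effective library size, was 18.5, 18.1 and 16.3 in EV vehicle and 27.5, 30.5 and 21.3 in EV T3. In TRB vehicle it was 17.0, 17.4 and 19.5, and in TRB T3 it was 83.5, 128.4 and 86.7, the middle value being the library that stands apart. All TRB T3 libraries were above every other library, both vehicle groups overlapped, and the 3 EV T3 libraries lay above the 3 EV vehicle libraries.

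In TRB cells LGR5 rose 5.54-fold with T3 (log2 fold change 2.47, SE 0.22, edgeR adjusted p = 4.73e-05). Without replicate 2 the rise was 4.89-fold (log2 2.29, SE 0.14, adjusted p = 1.35e-07). This call was made in all 25 other settings tried, with log2 fold changes of 2.16 to 2.58. In EV cells the log2 fold change was 0.59 (SE 0.21, adjusted p = 0.624) with 12 libraries and 0.62 (SE 0.14, adjusted p = 0.0261) with 11. The rise in EV cells was called in 7 of 24 other settings. The fit of the EV groups alone did not call it (edgeR adjusted p = 0.125). TRB T3 libraries are not part of this comparison and bear on it only through the shared fit. The response to T3 was larger in TRB than in EV cells by 1.88 on the log2 scale (SE 0.30, adjusted p = 0.00987), and by 1.68 (SE 0.20, adjusted p = 0.000196) with 11 libraries. Between the vehicle groups the log2 difference was 0.03 (SE 0.21, adjusted p = 1). With T3 present, TRB cells had 3.75-fold more LGR5 than EV cells (log2 1.91, SE 0.22, adjusted p = 0.000605), and 3.3-fold more with 11 libraries (log2 1.72, SE 0.15, adjusted p = 4.73e-06). That 12-library call was lost when the fit held these groups alone, with an adjusted p of 0.0677. In RNA from a whole culture, a change in the share of cells that express LGR5 and a change in LGR5 RNA per cell cannot be told apart.

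**Figure D1:**
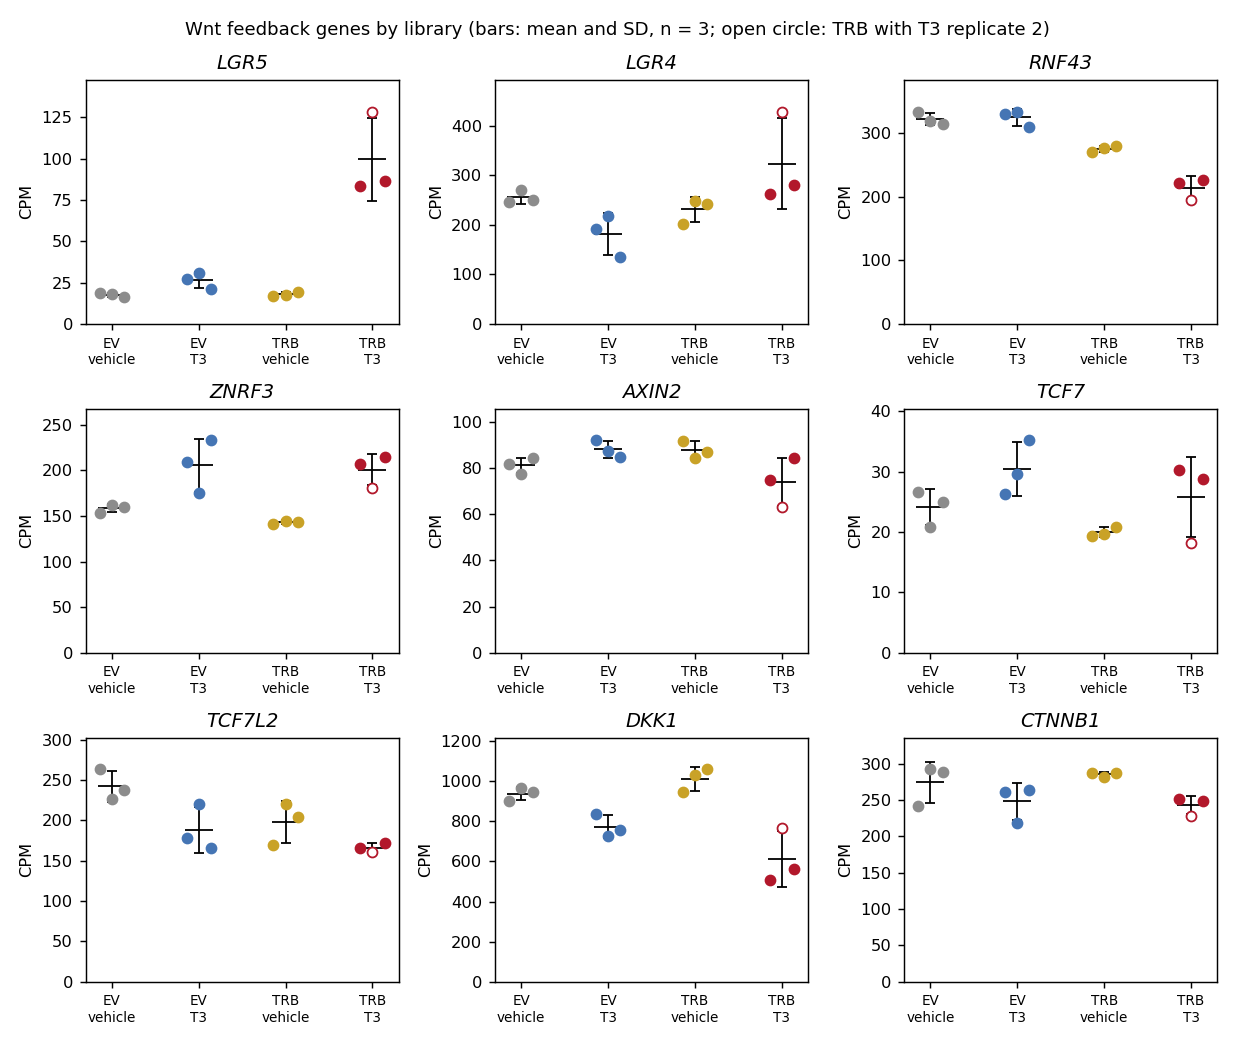
CPM of the 9 tested members in each of the 12 libraries, one panel per gene, with the mean and SD of the 3 libraries of a group. The open circle is TRB T3 replicate 2. LGR5 lies between 16.3 and 30.5 CPM in the other groups and between 83.5 and 128.4 CPM in TRB T3.

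Summed markers of other cell types also differed between these groups. The 4 mesenchymal markers summed to 33.4 to 35.4 CPM in EV vehicle, 88.3 to 108 in EV T3, 35.8 to 38.6 in TRB vehicle and 149 to 317 in TRB T3. COL1A2 was at 0 in every library and VIM never passed 1.51 CPM, while FN1 lay at 9.15 to 303 CPM and COL1A1 at 1.44 to 33.2 CPM. The thyroid follicular sum was 1.08 to 5.25 CPM in TRB T3 and 8.14 to 10.9 CPM in TRB vehicle. The epithelial sum was 1838 to 3642 CPM in TRB T3 and 3672 to 3735 CPM in TRB vehicle. The highest TRB T3 sum was thus only just below the lowest TRB vehicle sum. All TRB T3 ranges in this paragraph include replicate 2, the library that stands apart. VIL1 overlapped between TRB T3, at 177 to 208 CPM, and TRB vehicle, at 184 to 185 CPM. LGALS4 was at 56.1 to 273 CPM in TRB T3 and 693 to 733 in TRB vehicle, and HNF4A at 23.2 to 41.7 and 120 to 126 CPM. The part of these shifts in the LGR5 result was not tested.

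LGR4 (chromosome 11, 27365961 to 27472775, minus strand) is the paralogous R-spondin receptor and is expressed more widely than LGR5. Its CPM was 246.3, 271 and 249.6 in EV vehicle, and 192, 219 and 136 in EV T3. TRB vehicle libraries had 203, 249 and 242 CPM, and TRB T3 libraries had 262, 429 and 279.9. EV T3 lay wholly below EV vehicle, and TRB T3 wholly above TRB vehicle. Neither change passed the threshold with 12 libraries: the log2 fold change with T3 was 0.48 (SE 0.23, edgeR adjusted p = 0.178) in TRB cells and -0.49 (SE 0.23, adjusted p = 0.844) in EV cells. With 11 libraries these were 0.28 (adjusted p = 0.241) and -0.48 (adjusted p = 0.0768), and the difference between the responses reached 0.76 (SE 0.23, adjusted p = 0.0432), against 0.97 (SE 0.32, adjusted p = 0.155) with all 12. TRB cells with T3 had more LGR4 than EV cells with T3 by 0.62 (SE 0.17, adjusted p = 0.0208) with 11 libraries and by 0.83 (SE 0.23, adjusted p = 0.0576) with 12.

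The ligases differed from each other. RNF43 (chromosome 17, 58352500 to 58417595, minus strand) stood at 332, 319 and 315 CPM in EV vehicle, 331, 334 and 309.8 in EV T3, 270.4, 277 and 279 in TRB vehicle, and 221.6, 194.1 and 227.1 in TRB T3. Every TRB library was below every EV library. With T3 present RNF43 was lower in TRB than in EV cells, at 0.66 times the EV level (log2 -0.60, SE 0.13, edgeR adjusted p = 0.0188), and at 0.72 times (log2 -0.47, SE 0.09, adjusted p = 0.00325) with 11 libraries. The vehicle difference was -0.22 with 12 libraries (SE 0.13, adjusted p = 1) and -0.21 with 11 (SE 0.08, adjusted p = 0.381). T3 in TRB cells gave -0.36 (SE 0.13, adjusted p = 0.083), and -0.25 (SE 0.09, adjusted p = 0.057) with 11 libraries, while in EV cells the log2 fold change was 0.01 (SE 0.13, adjusted p = 0.986). The RNF43 call between TRB and EV with T3 was lost in 7 of 25 other settings. Leaving out EV T3 replicate 1, 2 or 3 gave edgeR adjusted p-values of 0.0871, 0.0654 and 0.0663, and leaving out TRB vehicle replicate 1 gave 0.0552. The log2 differences were then -0.594, -0.584, -0.62 and -0.574, near the -0.60 of the full fit. TRB vehicle libraries are not part of this comparison and bear on it only through the shared fit.

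ZNRF3 (chromosome 22, 28883592 to 29057487, plus strand), the partner ligase, rose with T3 in TRB cells. It had 154, 162 and 159.6 CPM in EV vehicle, 209, 175 and 233 in EV T3, 141, 145 and 144 in TRB vehicle, and 207, 181 and 215 in TRB T3. All T3 libraries lay above all vehicle libraries. In TRB cells the rise was 1.40-fold (log2 0.49, SE 0.15, edgeR adjusted p = 0.0481) with 12 libraries and 1.52-fold (log2 0.60, SE 0.11, adjusted p = 0.000778) with 11. In EV cells it was 0.37 (SE 0.15, adjusted p = 0.703) and 0.37 (SE 0.10, adjusted p = 0.0408). The fit of the EV groups alone did not call this rise (edgeR adjusted p = 0.177). The difference between the responses was 0.11 (SE 0.21, adjusted p = 0.726) with 12 libraries and 0.23 (SE 0.14, adjusted p = 0.297) with 11. With counts adjusted for GC content in each library, the rise in TRB cells was 2.34-fold (log2 1.22, SE 0.34, adjusted p = 0.0113) with 12 libraries and 1.38-fold (log2 0.47, SE 0.06, adjusted p = 8.49e-06) with 11, and the change in EV cells was not called in either. The difference then was 1.06 (SE 0.47, adjusted p = 0.136) and 0.30 (SE 0.09, adjusted p = 0.0123). The 12-library call in TRB cells was lost in 13 of 25 other settings. Leaving out TRB vehicle replicate 1, 2 or 3 gave adjusted p-values of 0.135, 0.141 and 0.149, EV vehicle replicate 1, 2 or 3 gave 0.0762, 0.0816 and 0.0834, EV T3 replicate 1 gave 0.0793, and TRB T3 replicate 1 or 3 gave 0.0831 and 0.0929.

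AXIN2 (chromosome 17, 65528563 to 65561647, minus strand) is a scaffold of the destruction complex and the target most often read as a gauge of beta-catenin activity. Its CPM was 81.7, 77.6 and 84.3 in EV vehicle, 92.0, 87.6 and 84.8 in EV T3, 92.0, 84.4 and 87.0 in TRB vehicle, and 74.7, 63.3 and 84.2 in TRB T3. All 12 libraries lay between 63.3 and 92.0 CPM. TRB T3 libraries were all below TRB vehicle libraries, the closest pair being 84.2 and 84.4 CPM, and EV T3 libraries all above EV vehicle libraries, the closest pair being 84.8 and 84.3. No comparison passed the threshold in the fits of 12 or 11 libraries: the log2 fold change with T3 was -0.25 (SE 0.15, edgeR adjusted p = 0.283) in TRB cells and 0.12 (SE 0.15, adjusted p = 0.939) in EV cells, and the difference was -0.36 (SE 0.21, adjusted p = 0.324). With 11 libraries the change in TRB cells was -0.10 (SE 0.10, adjusted p = 0.514) and the difference -0.22 (SE 0.14, adjusted p = 0.315). Of 25 other settings 1 called it lower, GC adjustment on 11 libraries (-0.23, SE 0.09, adjusted p = 0.0294), while that adjustment on 12 gave 0.18 (adjusted p = 0.534).

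DKK1 (chromosome 10, 52314296 to 52318042, plus strand), a secreted blocker of LRP5 and LRP6, was the most abundant member and fell with T3 in TRB cells. It had 901, 966 and 947 CPM in EV vehicle, 836, 727 and 755 in EV T3, 944, 1033 and 1059 in TRB vehicle, and 505, 768 and 565 in TRB T3. The TRB T3 libraries were all below the TRB vehicle libraries, and replicate 2 was the highest of them. DKK1 fell to 0.605 times its vehicle level in TRB cells (log2 -0.72, SE 0.17, edgeR adjusted p = 0.0169), and to 0.546 times (log2 -0.87, SE 0.11, adjusted p = 4.03e-05) with 11 libraries. In EV cells the log2 fold change was -0.28 (SE 0.17, adjusted p = 0.933) and -0.28 (SE 0.09, adjusted p = 0.0818). The difference between the responses was -0.44 (SE 0.24, adjusted p = 0.306) with 12 libraries and -0.59 (SE 0.14, adjusted p = 0.0133) with 11. With T3 present DKK1 in TRB against EV cells was -0.34 (SE 0.17, adjusted p = 0.238) and -0.47 (SE 0.10, adjusted p = 0.00688). The 12-library call in TRB cells was lost without TRB vehicle replicate 3 (adjusted p = 0.0547) and in the fit of these groups alone (adjusted p = 0.151).

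The start of DKK1 is shown because it is the only called member with an entry in the RefSeq promoter table for GRCh38.p14 that holds the core letters bound by TCF and LEF factors. The 250 bases before its start site, chr10:52314031-52314280 on the plus strand, read 5′ to 3′ as follows, with both matches to CTTTGA, on either strand, in capitals.
DKK1: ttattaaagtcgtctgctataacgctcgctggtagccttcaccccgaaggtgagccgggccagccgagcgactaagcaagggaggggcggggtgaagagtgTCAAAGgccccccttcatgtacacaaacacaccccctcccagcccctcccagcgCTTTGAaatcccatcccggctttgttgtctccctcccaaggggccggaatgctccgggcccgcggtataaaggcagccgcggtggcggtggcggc
The matches begin 149 bases before the start site on the minus strand and 95 bases before it on the plus strand. The table held 11 windows for 7 of the 10 members, each of 300 bases, and LGR5, ZNRF3 and AXIN2 had none. CTTTGA did not occur in the windows of LGR4, RNF43, LEF1, TCF7, TCF7L2 or CTNNB1, and it occurred in 12.9% of all 35116 windows. The nuclear receptor half-site AGGTCA, searched on both strands, occurred once in 1 of the 2 TCF7 windows and once in 1 of the 3 TCF7L2 windows, and in 13.8% of all windows. No match to one motif can be a match to the other. These are matches of letters, with no measurement of binding in the data.

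The DNA-binding partners of beta-catenin were unequal in level. TCF7L2 (chromosome 10, 112950250 to 113167678) had 263, 226 and 237 CPM in EV vehicle, 178, 220.4 and 166 in EV T3, 169, 220.2 and 204 in TRB vehicle, and 166, 161 and 172 in TRB T3. EV T3 and TRB vehicle libraries lay below the EV vehicle libraries, and TRB T3 overlapped TRB vehicle. With T3 the log2 fold change of TCF7L2 was -0.25 (SE 0.16, edgeR adjusted p = 0.308) in TRB cells and -0.36 (SE 0.16, adjusted p = 0.809) in EV cells, and with 11 libraries -0.18 (adjusted p = 0.399) and -0.35 (adjusted p = 0.116). None of these passed the threshold, but GC adjustment on 11 libraries called TCF7L2 lower with T3 in EV cells (-0.36, SE 0.11, adjusted p = 0.0256).

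TCF7 (chromosome 5, 134114711 to 134151865), which encodes the factor also called TCF1, had 26.7, 20.8 and 24.9 CPM in EV vehicle, 26.4, 29.7 and 35.2 in EV T3, 19.4, 19.7 and 20.9 in TRB vehicle, and 30.2, 18.2 and 28.9 in TRB T3. Replicate 2 of TRB T3 lay below all TRB vehicle libraries and the other 2 above them. The log2 fold change with T3 in TRB cells was 0.37 (SE 0.22, edgeR adjusted p = 0.272) with 12 libraries and 0.61 (SE 0.14, adjusted p = 0.00557) with 11. In EV cells it was 0.33 (SE 0.22, adjusted p = 0.935) and 0.34 (SE 0.14, adjusted p = 0.13). LEF1 (chromosome 4, 108047545 to 108168956) was not detected. A floor of 3 counts, set here as an approximate limit for a count of 0, equals 0.225 to 0.759 CPM in these libraries. It allows for counting error only and is not an absolute maximum.

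CTNNB1 (chromosome 3, 41194741 to 41260096) had 242, 292 and 289 CPM in EV vehicle, 262, 219 and 264 in EV T3, 287, 281 and 287 in TRB vehicle, and 252, 229 and 249 in TRB T3. TRB T3 libraries were all below TRB vehicle libraries, by less than the fit could call: the log2 fold change was -0.23 (SE 0.14, edgeR adjusted p = 0.286), and -0.14 (SE 0.11, adjusted p = 0.353) with 11 libraries. In EV cells it was -0.14 (SE 0.14, adjusted p = 0.935). Beta-catenin is controlled mainly through the stability of the protein, which was not measured.

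**Figure D2:**
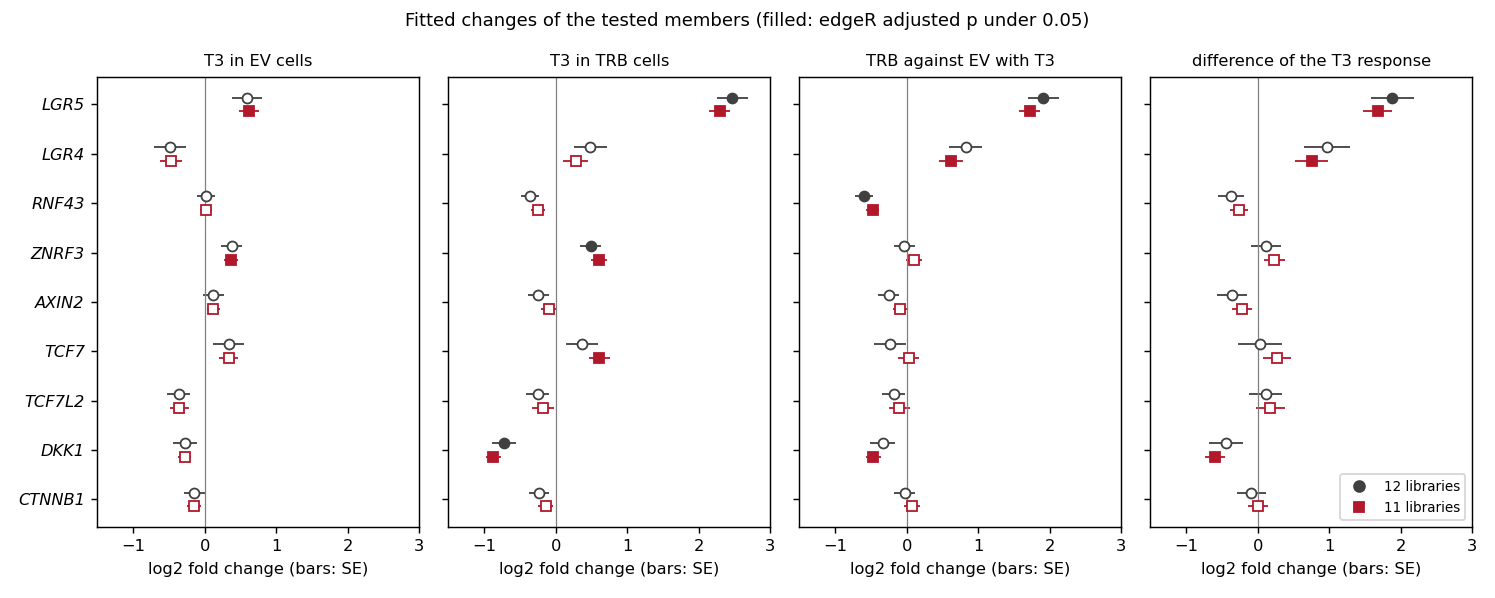
Fitted log2 fold changes of the 9 tested members with their standard errors, for T3 in EV cells, T3 in TRB cells, TRB against EV with T3, and the difference of the T3 responses. Circles are the fit of 12 libraries and squares that of 11, filled where the edgeR adjusted p is under 0.05. LGR5 is filled in both fits in 3 of the 4 panels, and AXIN2, TCF7L2 and CTNNB1 in none.

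Against the background of all tested genes, the members' counts were as follows. The members were chosen with earlier results of these data known. A share above that of all genes is therefore no evidence about the pathway. With T3 in TRB cells, 2 of 9 members rose (LGR5 and ZNRF3) and 1 fell (DKK1), where 8.54% of 14431 genes rose and 6.2% fell. With 11 libraries 3 rose, TCF7 being added, and 1 fell, where 18.1% of 14825 genes rose and 15.2% fell. The members' median log2 fold change was -0.23 with 12 libraries and -0.10 with 11, beside 0.01 and -0.01 for all genes. With T3 in EV cells, edgeR called 0 of 9 members (3 had an unadjusted p under 0.05, and DESeq2 also called 0), where 0.208% of genes rose and 0.0208% fell. With 11 libraries edgeR called LGR5 and ZNRF3 higher and 0 lower, although LGR4, TCF7L2 and DKK1 had an unadjusted p under 0.05 on the lower side and DESeq2 called LGR4 (-0.47, adjusted p = 0.0283) and DKK1 (-0.27, adjusted p = 0.0263) lower, where 3.76% rose and 3.57% fell. The fit of the EV groups alone called 0 members and 200 genes.

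Between TRB and EV cells in vehicle, edgeR called 0 of 9 members in either fit, where 0.00693% of genes were higher and 0.0139% lower with 12 libraries, and 0.027% and 0.0472% with 11. An unadjusted p under 0.05 was reached by 0 members with 12 libraries and 1 with 11, and DESeq2 called 0. The edgeR fit of the vehicle groups alone called 1563 genes and 0 members, with RNF43 lowest at an adjusted p of 0.0728. The low shares above thus depend on the spread shared with the T3 groups. GC adjustment on 11 libraries called ZNRF3 lower in TRB cells in vehicle (-0.30, SE 0.06, edgeR adjusted p = 0.0162). With T3 present LGR5 was higher and RNF43 lower, where 4.13% of genes were higher and 2.55% lower. With 11 libraries LGR5 and LGR4 were higher and RNF43 and DKK1 lower, where 11.8% and 7.9% of genes were. The log2 fold change with T3 was called more positive in TRB than in EV cells for LGR5 alone. Of all genes, 1.77% were called more positive and 0.825% more negative. With 11 libraries it was more positive for LGR5 and LGR4 and more negative for DKK1, where the shares were 8.55% and 6.68%. These counts give the sign of the difference, not the size of the response. The comparisons with T3 share the TRB T3 libraries and are not independent of each other.

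The members also differed in level when exon length was taken into account. Per kilobase of exon in EV vehicle, DKK1 stood at 425 CPM, RNF43 at 42.9, LGR4 at 40.3, TCF7L2 at 35.9, CTNNB1 at 23.0, ZNRF3 at 22.8, AXIN2 at 15.5, LGR5 at 3.36 and TCF7 at 2.40. RNF43 and LGR4 were closer than their SDs of 1.25 and 2.14 together, and CTNNB1 and ZNRF3 were closer than the CTNNB1 SD of 2.34. In TRB T3, LGR5 reached 19.0 ± 4.77 CPM per kilobase (SD, n = 3), or 16.2 without replicate 2. By its mean on this scale it then lay between CTNNB1 at 20.4 ± 1.06 and AXIN2 at 14.2 ± 1.999. It did not differ from CTNNB1 beyond their SDs, which leave out any error in the lengths. In replicate 2 LGR5 stood at 24.5 CPM per kilobase, above TCF7L2 at 23.8 and CTNNB1 at 19.2, whereas in replicates 1 and 3 it was below both.

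**Figure D3:**
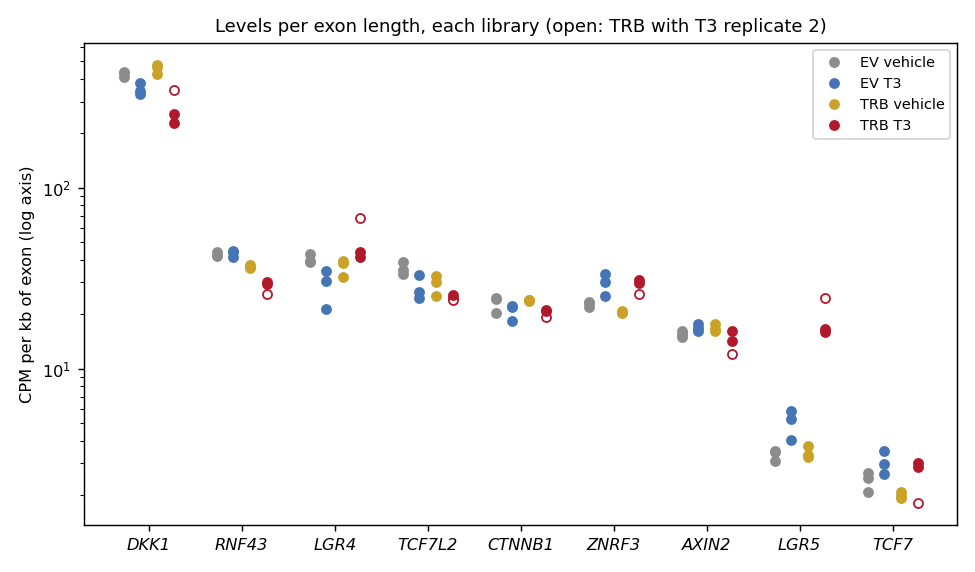
CPM per kilobase of exon for the 9 tested members in each library, on a log axis, ordered by the EV vehicle mean. The length is the union of all annotated exons of a gene. Open circles are TRB T3 replicate 2. DKK1 lies highest at 425 CPM per kilobase in EV vehicle, and LGR5 moves from 3.42 in TRB vehicle to 19.0 in TRB T3, between CTNNB1 at 20.4 and AXIN2 at 14.2.

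The members of low and high GC content lay apart in TRB T3 replicate 2, although not in strict order of GC. In that library LGR4, with 42.5% GC, was 1.58 times the mean of replicates 1 and 3, LGR5 with 44% was 1.51 times and DKK1 with 44.5% was 1.44 times. TCF7 with 56.9% stood at 0.615 times, AXIN2 with 55.2% at 0.797, ZNRF3 with 57.2% at 0.86 and RNF43 with 54.6% at 0.865. CTNNB1 and TCF7L2, with 46.1% and 48.5%, were at 0.913 and 0.951. When the counts were adjusted for GC content in each library, LGR5 still rose with T3 in TRB cells, by 2.16 with 12 libraries (SE 0.10, edgeR adjusted p = 1.19e-08) and 2.23 with 11 (SE 0.08, adjusted p = 5.62e-13). With that adjustment DKK1 fell by 1.00 (SE 0.12, adjusted p = 2.35e-05) and 0.93 (SE 0.11, adjusted p = 9.59e-07). RNF43 changed from -0.36 to 0.05 with 12 libraries (adjusted p = 0.883) but to -0.38 with 11 (SE 0.09, adjusted p = 0.00195). TCF7 was called with T3 in TRB cells with the adjustment on 12 libraries too (0.81, SE 0.24, adjusted p = 0.0142), and 0.47 (SE 0.11, adjusted p = 0.00164) on 11. LGR4 was called on 11 (0.22, SE 0.07, adjusted p = 0.0172). For TRB against EV with T3, RNF43 went from -0.60 to -0.14 (SE 0.22, adjusted p = 0.662) with 12 libraries and lost its call, and was -0.57 (SE 0.09, adjusted p = 9.25e-05) with 11.

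**Figure D4:**
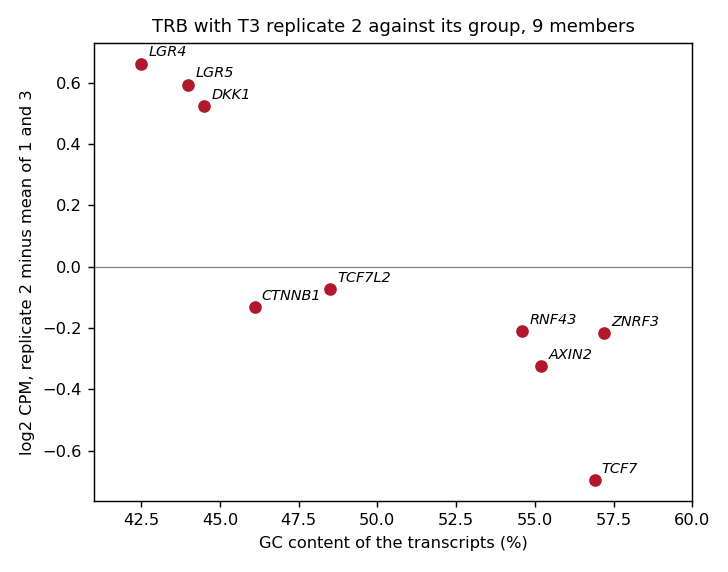
Difference in log2 CPM between TRB T3 replicate 2 and the mean of replicates 1 and 3, against the GC content of the transcripts in percent, for the 9 tested members. LGR4, LGR5 and DKK1, at 42.5 to 44.5% GC, lie above 0, and the 4 members from 54.6 to 57.2% lie below it.

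The genes whose profile lay nearest to that of LGR5 over the 11 libraries, by the root mean square difference of centred log2 CPM among 12715 genes, were ANO1 (0.15), PARP14 (0.16) and ERAP1 (0.17), where LGR5 itself varied by 0.84 around its mean. ANO1, which encodes a chloride channel, averaged 59.2 CPM in EV vehicle, 84.3 in EV T3, 58.6 in TRB vehicle and 299 in TRB T3. DKK1 was nearest to KLC4 (0.07), EPB41L4A-AS1 (0.08) and ALDH3A2 (0.08), with its own variation at 0.33. AXIN2 was nearest to USP4 (0.05), CPSF7 (0.06) and SMURF1 (0.06), with its own variation at 0.09.

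The rest of the pathway was read from 7 lists with 114 genes, of which 113 were in the files and 75 were tested. These lists too were chosen with earlier results known, so the shares beside all genes are descriptive only. With T3 in TRB cells 13 of 75 rose and 7 fell, beside 8.54% and 6.2% of all genes, and 22 and 11 of 76 with 11 libraries, beside 18.1% and 15.2%. The share that fell with 11 libraries was thus close to that of all genes. In EV cells edgeR called 2 higher and 0 lower with 12 libraries, beside 0.208% and 0.0208%, and 6 and 2 with 11, beside 3.76% and 3.57%. Between the vehicle groups none was called with 12 libraries and MMP7 alone, lower in TRB cells, with 11. The T3 response was more positive in TRB cells for 3 genes and more negative for 1 with 12 libraries, beside 1.77% and 0.825% of all genes. With 11 libraries the counts were 14 and 8, beside 8.55% and 6.68%. The median log2 fold change of the lists with T3 in TRB cells was -0.02 with 12 libraries and 0.12 with 11, beside 0.01 and -0.01 for all genes.

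Among 9 tested genes of ligands and their secretion, WNT2B rose and WNT8B, WNT10B and WNT11 fell with T3 in TRB cells. WNT11, a ligand of the branch independent of beta-catenin, had 14.03, 14.3 and 15.7 CPM in TRB vehicle and 3.30, 0 and 4.87 in TRB T3. Its log2 fold change was -2.36 (SE 0.65, edgeR adjusted p = 0.034), and -1.83 (SE 0.22, adjusted p = 3.69e-05) without the library at 0. In EV cells it stood at 10.9 ± 0.486 CPM in vehicle and 17.5 ± 4.47 with T3 (SD, n = 3 each), a log2 change of 0.67 (SE 0.61, adjusted p = 0.935). WNT10B changed by -1.64 (SE 0.41, adjusted p = 0.023), and by -1.80 (SE 0.41, adjusted p = 0.00433) with 11 libraries, from a low level, 3.76 CPM in TRB vehicle. WNT10A had 70.4, 8.995 and 85.1 CPM in TRB T3, its log2 change was 0.98 (SE 0.58, adjusted p = 0.268) with 12 libraries, and it rose by 1.52 (SE 0.19, adjusted p = 5.23e-05) with 11.

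Among 14 tested R-spondin and receptor genes, FZD4 and FZD7 rose and LGR6 and FZD5 fell in TRB cells. FZD7, a Frizzled receptor for Wnt ligands, had 14.8, 15.4 and 16.4 CPM in TRB vehicle and 50.0, 60.8 and 56.7 in TRB T3. It rose by 1.84 (SE 0.16, edgeR adjusted p = 3.86e-05), against 0.14 (SE 0.16, adjusted p = 0.935) in EV cells, and the difference of 1.7 (SE 0.22, adjusted p = 0.00346) was itself called. With 11 libraries the rise was 1.82 (SE 0.12, adjusted p = 1.82e-07) and the difference 1.68 (SE 0.17, adjusted p = 5.33e-05). LGR6, the remaining paralogue of LGR4 and LGR5, went the other way from LGR5: 7.01, 6.38 and 6.71 CPM in TRB vehicle and 3.23, 0.72 and 2.12 in TRB T3, a log2 fold change of -1.63 (SE 0.37, adjusted p = 0.0138) and -1.22 (SE 0.24, adjusted p = 0.0015) with 11 libraries.

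Of 5 tested inhibitors other than DKK1, KREMEN1 and SOSTDC1 rose. KREMEN1, a membrane receptor that works with DKK1 to take LRP6 off the surface, had 34.4, 30.0 and 27.3 CPM in TRB vehicle and 269, 61.7 and 265 in TRB T3. The low middle value is the library that stands apart. KREMEN1 rose by 2.7 (SE 0.44, edgeR adjusted p = 0.00227), and by 3.18 (SE 0.13, adjusted p = 2.76e-09) without that library. In EV cells it changed by 0.96 (SE 0.42, adjusted p = 0.807) with 12 libraries and rose by 0.95 (SE 0.12, adjusted p = 0.000581) with 11. SOSTDC1, an antagonist of BMP and Wnt ligands, rose by 0.86 (SE 0.17, adjusted p = 0.00689) from 11.8 ± 0.530 to 21.5 ± 2.26 CPM (SD, n = 3), and by 0.82 (SE 0.14, adjusted p = 0.000712) with 11 libraries, where KREMEN2 was also called lower.

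Of 16 tested genes of the destruction complex and Dishevelled, 1 was called with 12 libraries. GSK3B, the kinase that phosphorylates beta-catenin, rose from 165.7 ± 9.40 to 343.9 ± 108 CPM (SD, n = 3; log2 1.05, SE 0.22, edgeR adjusted p = 0.00921), and by 0.81 (SE 0.14, adjusted p = 0.000719) with 11 libraries. Of 12 nuclear partners, TLE3 rose and TLE1 fell, both being Groucho-type corepressors that bind TCF factors. TLE1 went from 55.9 ± 1.32 to 28.1 ± 1.93 CPM (log2 -0.99, SE 0.18, adjusted p = 0.00463), with a log2 fold change of -0.90 (SE 0.16, adjusted p = 0.000762) with 11 libraries. TLE3 had 220, 67.1 and 239 CPM in TRB T3 against 54.1, 59.1 and 56.3 in TRB vehicle (log2 1.64, SE 0.37, adjusted p = 0.0136), and rose by 2.07 (SE 0.12, adjusted p = 8.22e-08) with 11 libraries, where BCL9L, TLE4, CREBBP and EP300 were also called higher, 5 in all against 1 lower. Of 5 cadherin partners, CDH1 (E-cadherin) rose, by 0.66 (SE 0.14, adjusted p = 0.0101) and by 0.81 (SE 0.09, adjusted p = 2.95e-05) with 11.

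Among 14 tested genes reported elsewhere as Wnt targets, 5 rose and 1 fell, with a median of -0.39. MMP7, a secreted protease, had 30.4, 38.5 and 35.9 CPM in TRB vehicle and 1679, 2671 and 1727 in TRB T3, a rise of 57.9-fold (log2 5.86, SE 0.25, edgeR adjusted p = 5.12e-07). In EV cells it rose 4.65-fold (log2 2.22, SE 0.21, adjusted p = 0.00124), and the difference of 3.64 was called (SE 0.29, adjusted p = 0.000295). With 11 libraries MMP7 rose by 5.65 (SE 0.14, adjusted p = 4.57e-11) in TRB cells and the difference was 3.44 (SE 0.17, adjusted p = 1.19e-07). TBX3, a T-box repressor, rose by 2.11 (SE 0.15, adjusted p = 1.3e-05) in TRB and by 0.93 (SE 0.15, adjusted p = 0.037) in EV cells, and by 2.09 (SE 0.12, adjusted p = 4.3e-08) in TRB cells with 11 libraries. MYC, the growth regulator, fell from 378.8, 423 and 382 CPM to 139, 91.4 and 149.8 (log2 -1.64, SE 0.21, adjusted p = 0.000422), against -0.28 (SE 0.20, adjusted p = 0.935) in EV cells, and the change in TRB cells was -1.40 (SE 0.14, adjusted p = 8.47e-06) with 11 libraries. NKD1, a cytoplasmic feedback inhibitor of Dishevelled that was picked here after its values were seen, rose by 1.53 (SE 0.22, adjusted p = 0.000977) in TRB cells and changed by 1.05 (SE 0.22, adjusted p = 0.113) in EV cells, and with 11 libraries it rose by 1.8 (SE 0.11, adjusted p = 1.04e-07) and 1.05 (SE 0.10, adjusted p = 0.000101). CCND1 and EPHB2, named to complete the count, rose by 0.77 (SE 0.15, adjusted p = 0.00604) and 1.93 (SE 0.42, adjusted p = 0.0104), and by 0.68 (adjusted p = 0.000235) and 2.36 (adjusted p = 2.33e-06) with 11 libraries. Genes filed under the same heading thus moved in both directions, and AXIN2 was not among those called.

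**Figure D5:**
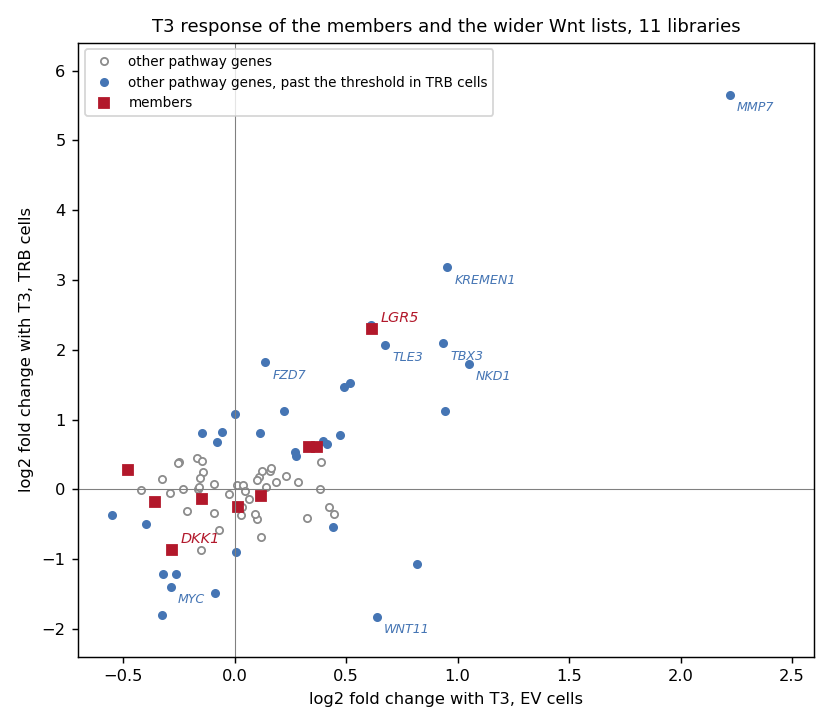
Log2 fold change with T3 in TRB cells against that in EV cells, from the fit of 11 libraries, for the 9 tested members (red squares) and 73 other pathway genes with a median of at least 10 counts; filled blue points passed the threshold in TRB cells. Both axes are differences, not levels. LGR5 lies at 2.29 on the vertical axis and DKK1 at -0.87, and MMP7 is the highest point.

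Some members share exon sequence with other annotated genes, and the strand setting of the counting is not given in the sources used here. RNF43 shares 4326 bases with AC004687.2 on the same strand and 1521 with TSPOAP1-AS1 on the other, and AXIN2 shares 1316 bases with AC004805.1 on its own strand. LGR5 shares 208 bases with AC078860.1, DKK1 212 with PRKG1-AS1 and TCF7 210 with SKP1, all on the opposite strand. Reads from those stretches cannot be assigned between the partners from the counts alone.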

How the data were processed

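Total RNA of SW1736 cells was sequenced in 12 libraries, 3 in each of 4 groups. Per the submitters' processing notes, CASAVA 1.7, STAR 2.7, HTSeq 0.10, DESeq2 and hg38 were used; their roles, the annotation and the strand setting are not given in the sources used here. The deposited values are raw counts per gene symbol, as the authors' counting left them; summary rows outside genes (multiply aligned reads were 19.0 to 92.0% of all counts in the files) stayed out of every total. The authors' normalized table was not used.

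Genes were filtered with filterByExpr (minimum count 10, minimum total 15), scaled by TMM and fitted with edgeR 4.0.16 (R 4.3.3) by quasi-likelihood with 1 coefficient per group, and p-values were adjusted by Benjamini-Hochberg over all genes tested, two-sided, at 0.05. CPM values use the effective library sizes of the 12-library fit, and likeness used log2 CPM with a prior count of 2. In a test on simulated data, 200 of 14431 genes were changed for T3 in TRB cells. Of these, 96% of the 4-fold and 86% of the 2-fold changes were recovered, with 4.21% false calls. All 12 simulated libraries shared a coefficient of variation of 0.13, with no GC trend and no library standing apart. The real libraries had 0.131 in the 11-library fit and 0.3285 in the 12-library fit, so these rates do not describe the latter. Alternatives were DESeq2 1.42.0, other scalings, no filter, a replicate block, GC offsets from a spline with 5 degrees of freedom over 84.1% of tested genes, the compared groups alone and leaving out each library; 4 settings on 11 libraries were added after seeing the data. The main fits did not pair samples by replicate number, and whether they were paired could not be decided from the data. From each pathway list and comparison, at most 2 called genes of largest change were named, given a mean log2 CPM of 1 or more; the others were named after their values were seen, to complete a count. The members and lists were chosen with earlier results of these data known.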

Additional observations from a re-analysis of the deposited data

Results flagged for a closer look

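The response of LGR5 to T3 differed between the vectors, by 1.88 on the log2 scale with 12 libraries (edgeR, difference of the T3 responses, adjusted p = 0.00987) and by 1.68 with 11 (adjusted p = 0.000196). All 3 TRB T3 libraries were above all TRB vehicle libraries, and the smaller difference in EV cells had the same direction in all 3.

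With 11 libraries the response also differed for LGR4, by 0.76 (edgeR adjusted p = 0.0432), and for DKK1, by -0.59 (adjusted p = 0.0133). LGR4 was higher with T3 in both remaining TRB T3 libraries and lower in all 3 EV T3 libraries, while DKK1 was lower in both kinds of cell and more so in TRB cells. With all 12 libraries these differences were 0.97 (adjusted p = 0.155) and -0.44 (adjusted p = 0.306), and the part of the library that stands apart in this change of call was not tested beyond leaving it out.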

How the results depend on the processing

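LGR5 kept its calls for T3 in TRB cells and for the difference of the T3 responses in all settings tried. The 4 settings added after seeing the data were RLE factors, total library size, DESeq2 and the compared groups alone, each on 11 libraries; the difference of responses has no fit of compared groups alone. Of 1089 values for members under the alternatives, 944 kept direction and side of the threshold, 69 gained a call, 23 lost one and 53 changed sign, none of these called in either fit. Depth limits LGR5, which rests on 84 to 1113 counts in a library. The cause of each change below was not tested.

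Leaving out 1 library at a time gave 1256 to 4938 genes and 1 to 4 members called for T3 in TRB cells, 10 to 1087 genes and 0 to 2 members for T3 in EV cells, 1 to 11 genes and 0 members for TRB against EV in vehicle, 414 to 2918 genes and 1 to 4 members for TRB against EV with T3, and 136 to 2259 genes and 1 to 3 members for the difference. The highest gene count was always without TRB T3 replicate 2; over the other libraries the highest were 2381, 24, 2, 1116 and 358, against 2128, 33, 3, 964 and 374 with 12 libraries.

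The same order of comparisons (T3 in TRB, T3 in EV, vehicle, with T3, difference) holds for the gene counts that follow. On 11 libraries, DESeq2 gave 4698, 1846, 61, 2905 and 2597 genes, RLE factors 4929, 1195, 12, 2929 and 2304, total library size 5091, 1194, 12, 2923 and 2377, and GC offsets 7017, 2293, 146, 5267 and 4364. Members called were 5, 4, 0, 4 and 3 with DESeq2 on 11 libraries, 2 for T3 in EV, 4 with T3 and 3 for the difference with RLE factors, 5, 2, 0, 4 and 3 with total library size, and 7, 3, 1, 4 and 4 with GC offsets. The compared groups alone on 11 libraries called 7352 genes and 6 members for T3 in TRB cells. On 12 libraries, GC offsets gave 5408, 568, 5, 3700 and 2551 genes, with 1 member for T3 in EV cells and 2 for the difference. DESeq2 gave 165 genes for T3 in EV cells, 8 in vehicle, 1846 with T3 and 956 for the difference. The compared groups alone gave 634, 200, 1563 and 32 genes in the first 4 comparisons, with 1 member for T3 in TRB cells and 0 with T3. Without a count filter 19 genes were called for T3 in EV cells and 238 for the difference, and 1 member with T3; total library size called 4 members with T3.

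Higher calls were 57.9% of calls for T3 in TRB cells with 12 libraries and 46.4% with GC offsets, and 54.4% and 43.5% with 11. Total library size shifted the median of all genes by -0.15 for T3 in TRB cells and -0.16 for the difference, which the members' values include.

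Whether same-numbered samples were paired could not be decided from these values. Their deviations correlated from -0.03 to 0.43 between EV vehicle and EV T3, and from -0.14 to 0.27 between TRB vehicle and TRB T3. Between the vehicle groups the range was 0.02 to 0.14, and between the T3 groups 0.06 to 0.73. In each pair of groups 2 of 3 samples correlated best with their own number. The main fits treated the samples as unpaired. With a replicate block on 12 libraries 18 genes were called for T3 in EV cells. With the block on 11 libraries 5223, 1965, 12, 3223 and 3274 genes were called, with 3 members for T3 in EV cells, 4 with T3 and 3 for the difference.

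Sign changes were as follows, on the log2 scale. With GC offsets on 12 libraries, T3 in TRB cells gave RNF43 0.047 and AXIN2 0.18, T3 in EV cells RNF43 -0.14 and AXIN2 -0.04, vehicle LGR4 0.048, TRB against EV with T3 ZNRF3 0.77, AXIN2 0.22 and TCF7 0.26, and the difference RNF43 0.18 and AXIN2 0.22. With GC offsets on 11, T3 in EV cells gave RNF43 -0.14 and AXIN2 -0.032, vehicle LGR4 0.0498 and AXIN2 -0.0017, and TRB against EV with T3 ZNRF3 0.0054 and CTNNB1 0.0028. For TRB against EV with T3, ZNRF3 and CTNNB1 were 0.0091 and 0.012 with RLE factors, 0.0068 and 0.0082 with DESeq2, 0.0801 and 0.064 with the replicate block on 11 libraries, and, on 11 libraries too, 0.092 and 0.067 with RLE factors, 0.044 and 0.019 with total library size, 0.027 and 0.0022 with the compared groups alone, and 0.10 and 0.073 with DESeq2, where TCF7 was 0.023 with RLE factors and 0.032 with DESeq2. Without a count filter RNF43 was -0.032 for T3 in EV cells. For the difference, total library size gave ZNRF3 -0.0496, TCF7 -0.10 and TCF7L2 -0.055, and DESeq2 on 11 libraries CTNNB1 0.0087. Leaving out 1 library at a time gave LGR5 -0.00456 to 0.0947 in vehicle, ZNRF3 -0.142 to 0.101, TCF7 -0.341 to 0.0304 and CTNNB1 -0.119 to 0.0755 for TRB against EV with T3, and ZNRF3 -0.0222 to 0.235, TCF7 -0.109 to 0.274 and CTNNB1 -0.203 to 0.00563 for the difference.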
